A study of Mus musculus with 8 samples.

Results

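The genes described here mark early and late retinal progenitor cells (RPCs), the dividing cells that make every neuron of the retina. They were chosen by name, as the rows of the count table for Hmga2, Lin28b, Igf2bp1, Igf2bp2, Igf2bp3 and Foxp1, taken as early genes, and for Nfia, Nfib and Nfix, taken as late genes. These are 9 of 57180 rows. RNA came from isolated embryonic retinas of 4 Rax-SmoCKO and 4 control libraries. Rax-SmoCKO retinas carry a Rax-Cre BAC transgene and are homozygous for the conditional Smo allele (Smo CKO/CKO), so that Smo, the transducer of the Shh signal, is deleted in the optic vesicle and all that forms from it, the pigment epithelium included. Control retinas are also Smo CKO/CKO but carry no Cre. All lines were kept on an albino CD1 background, and since no library carries Rax-Cre with an intact Smo gene, an effect of the transgene and one of Smo loss cannot be told apart. The series' design places every retina at embryonic day 13, whereas the sample labels give days 17 to 20 for Rax-SmoCKO replicates 1 to 4 and days 13 to 16 for control replicates 1 to 4. The study's text, like the design, describes one embryonic age and controls from the same litters. The age in the design is used here, and if the labelled days were ages instead, age and genotype could not be told apart.

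RPCs make their cell types in a fixed order, with ganglion cells first and Müller glia last, and the set of fates open to them shifts as development goes on. Lin28b is an RNA-binding protein that blocks the maturation of let-7 microRNAs, and let-7, miR-125 and miR-9 are known in the mouse retina to carry RPCs from early to late competence. Hmga2, a chromatin protein of young stem cells, and the Igf2bp proteins, which bind mRNAs and protect them, are known targets of let-7. Foxp1 is a forkhead transcription factor that holds progenitors of the mouse cortex in an early state. Nfia, Nfib and Nfix are the nuclear factor I transcription factors that mouse RPCs need for their late fates and for glia.

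The let-7 microRNAs are shown first, because their seed, bases 2 to 8 of the mature strand in capitals below, is the sequence that most of the early genes share. Of 10 let-7 names listed in RefSeq for GRCm38.p6, 9 have this seed. Outside it they differ slightly, as let-7a-5p, let-7e-5p and let-7i-5p show, read 5′ to 3′.
let-7a-5p: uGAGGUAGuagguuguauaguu
let-7e-5p: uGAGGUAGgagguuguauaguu
let-7i-5p: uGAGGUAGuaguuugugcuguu

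The complement of the let-7 seed, CTACCTC, was looked for on the transcript strand of the longest 3′ UTR annotated for each gene (GENCODE M21, GRCm38). It was found in 5 of the 6 early genes and 1 of the 3 late genes, beside 10.8% of all 12382 UTRs of genes tested. Followed by an A, the form that pairs best with the targeting complex, it was found in the same 5 early genes and in 0 of the 3 late genes, beside 3.83% of all UTRs. Igf2bp1 held 4 matches, 3 of them followed by an A. Hmga2 and Lin28b held 4 matches each with 1 followed by an A, and Igf2bp2 and Igf2bp3 held 1 each. The match nearest the start of the UTR that is followed by an A is printed here with the 15 bases before it, the match in capitals.
Hmga2, chr10:120364224-120364246, minus strand: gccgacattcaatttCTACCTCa
Lin28b, chr10:45381022-45381044, minus strand: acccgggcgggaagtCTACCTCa
Igf2bp1, chr11:95961778-95961800, minus strand: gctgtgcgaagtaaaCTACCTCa
Igf2bp2, chr16:22059473-22059495, minus strand: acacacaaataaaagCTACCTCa
Igf2bp3, chr6:49086787-49086809, minus strand: tgcatttttactcaaCTACCTCa

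Foxp1, Nfib and Nfix held no match, and the single match of Nfia is followed by a T. These UTRs are long, and a longer sequence holds more matches by its length alone. The 9 run from 1784 bases in Igf2bp2 to 7639 in Nfia, against a median of 1297.5 over all genes, and the 3 without a match are 3951 to 6621 bases. The seed complement of miR-125, CTCAGGG, lay in Lin28b, Igf2bp3, Foxp1 and Nfib (16.0% of all UTRs), and that of miR-9, ACCAAAG, in every gene but Igf2bp1 and Nfix (14.9% of all UTRs). Several of these genes are known as let-7 targets and were grouped partly for that reason, so the shared matches are a property of the choice and say nothing of whether let-7 acts in these retinas. Mature microRNAs were not measured by these libraries, and all 17 rows of let-7, miR-125 and miR-9 hairpins were at 0 counts.

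The libraries were made by 3′-Tag-Seq, where reads cover only transcript ends. Longer transcripts therefore gain no counts by their length, and the levels of different genes are set side by side here. The handling of strand and multi-mapping reads was not stated and may differ in effect between genes. Such comparisons between genes are therefore approximate. The unit of level is CPM, the count a gene would have in a library of 1000000 counts after TMM scaling. Library totals were 3026843 to 4615667 counts in Rax-SmoCKO and 3017480 to 4328567 in control. Smo had 2.85 to 4.95 CPM in Rax-SmoCKO and 16.3 to 23.8 CPM in control, and the pathway's target gene Gli1 had 0.714 to 4.09 and 11.7 to 28.0 CPM in the same groups. Which part of Smo is deleted was not stated in the sources read, so the Smo level does not test the deletion. Apart from these libraries, the study reports loss of Smo mRNA in Rax-SmoCKO eyes by in situ hybridization, with less Gli1. Some libraries stood apart. Y-linked genes had 1131 and 893 counts in Rax-SmoCKO replicates 2 and 3, where Xist had at most 2. In the remaining 6 libraries Xist had at least 1389 counts and Y-linked genes at most 1. Rax-SmoCKO replicate 2 and control replicate 2 held the most lens RNA in their groups, 494.0 and 20433 CPM over 20 lens genes. No source says if a library is 1 embryo or a pool, and p-values here measure only the spread between these samples, which may be technical.

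In Rax-SmoCKO retinas the order of mean levels was Igf2bp1, Foxp1, Igf2bp3, Igf2bp2, Hmga2, Nfib, Lin28b, Nfia and Nfix, and control retinas had the same order, with the late gene Nfib above the early gene Lin28b in both. Neighbours whose libraries overlapped were Igf2bp2 and Hmga2 in both groups, and Hmga2 with Nfib and Lin28b with Nfia in Rax-SmoCKO. Igf2bp1, at 871.8 ± 68.3 CPM (SD, n = 4) in control, lay above 99.5% of the genes tested in mean control level. Nfix, at 1.12 ± 0.48 CPM (SD, n = 4), lay above 1.21% of them.

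All 6 early genes had lower mean levels in Rax-SmoCKO than in control retinas, and all 3 late genes had higher ones. In bulk retina, a change in the number of cells expressing these genes and one in RNA per cell cannot be told apart. None of the 9 passed the threshold over all genes, an adjusted p under 0.05 in edgeR's quasi-likelihood test, which 0.0950% of the 14730 genes tested did, and 0.0407% with an absolute log2 fold change over 1 as well. None passed with limma-voom or DESeq2 either, where DESeq2 gave Nfix no adjusted p. Over all genes, 50.4% were below 0 and 49.6% above. The median log2 fold change, Rax-SmoCKO over control, was -0.19 over the early genes and 0.59 over the late genes, beside -0.0018 over all genes tested, where the middle of the distribution ran from -0.11 to 0.12 (quartiles). At an unadjusted p under 0.05, 5 of the 6 early genes were lower, as were 4.68% of all genes, and 2 of the 3 late genes were higher, as were 4.80% of all genes. The groups did not overlap in 2 of the 6 early genes, lower in Rax-SmoCKO, beside 2.95% of all genes, and overlapped in all 3 late genes, where 2.68% of all genes did not overlap and were higher. All 9 genes met the filter of at least 5 counts in at least 4 libraries, Nfix with 5 libraries, 3 of Rax-SmoCKO and 2 of control.

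**Figure D1:**
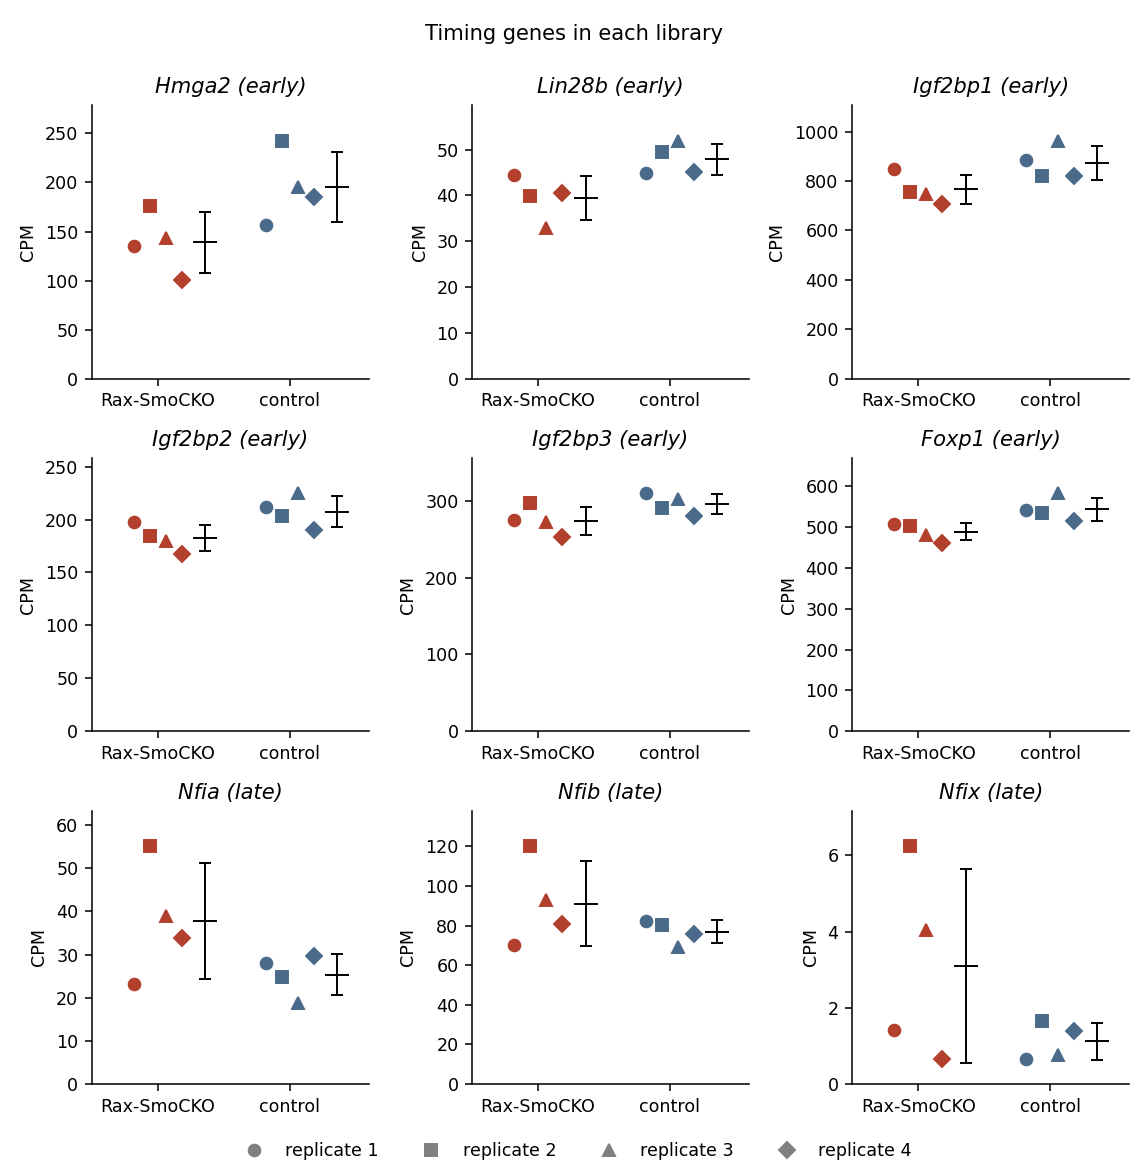
CPM of each timing gene (y axis, from 0) in the 4 Rax-SmoCKO libraries (red, left) and the 4 control libraries (blue, right), with a marker shape for each replicate number and the mean ± SD in black. Lin28b and Foxp1 are the genes whose Rax-SmoCKO libraries all lie below the control libraries, and Nfia, Nfib and Nfix are highest in Rax-SmoCKO replicates 2 and 3.

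Hmga2 differed most among the early genes. It had 135.6, 176.2, 143.0 and 100.7 CPM in Rax-SmoCKO replicates 1 to 4, against 156.7, 242.7, 195.4 and 185.3 CPM in control replicates 1 to 4. Rax-SmoCKO replicates 1, 3 and 4 lay below every control library, and replicate 2 lay above control replicate 1. The log2 fold change was -0.49 (SE 0.16, 95% interval -0.83 to -0.15, adjusted p = 0.345 from edgeR). The highest value of each group was in replicate 2, the library richest in lens RNA. Without control replicate 2 the log2 fold change was -0.36, without Rax-SmoCKO replicate 4 it was -0.37, and without both lens-rich libraries it was -0.50. Its gene, on chromosome 10 from 120361275 to 120476469, overlaps 1700006J14Rik on the opposite strand, which had 397 counts in all. The use of strand in counting was not stated, so reads of such partners cannot be told apart here.

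Lin28b, the blocker of let-7 maturation, was low in Rax-SmoCKO replicate 3 and did not overlap between the groups. Its levels were 44.5, 39.8, 32.8 and 40.5 CPM in Rax-SmoCKO replicates 1 to 4, against 45.0, 49.5, 52.0 and 45.1 CPM in control replicates 1 to 4. The gap between the highest Rax-SmoCKO and the lowest control library was small, 187 and 136 counts scaled to 44.5 and 45.0 CPM. By the exact permutation test this gave p = 0.0286 (two-sided), the least possible with 4 libraries a group. On the log2 scale the fold change was -0.28 (SE 0.10, 95% interval -0.50 to -0.07, adjusted p = 0.397 from edgeR), and it was -0.17 without both libraries with Y-linked counts. Lin28b, on chromosome 10 from 45376620 to 45486395, overlaps no other annotated gene.

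The 3 Igf2bp genes, with their let-7 matches shown above, made up 63.3 to 65.7% of the summed CPM of the early genes in Rax-SmoCKO and 61.4 to 65.4% in control. Igf2bp1 had 848.2, 757.3, 748.6 and 708.6 CPM in Rax-SmoCKO replicates 1 to 4, against 884.4, 819.9, 963.4 and 819.3 CPM in control replicates 1 to 4. Rax-SmoCKO replicate 1 reached into the control range and the others lay below it. Its log2 fold change was -0.19 (SE 0.063, 95% interval -0.33 to -0.05, adjusted p = 0.382 from edgeR).

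Igf2bp2 had 197.7, 184.2, 179.8 and 167.5 CPM in Rax-SmoCKO replicates 1 to 4, against 211.9, 203.6, 224.7 and 189.8 CPM in control replicates 1 to 4. Here too replicate 1 was the single Rax-SmoCKO library within the control range, and Igf2bp2 had a log2 fold change of -0.19 (SE 0.072, adjusted p = 0.455 from edgeR). Igf2bp3 had 275.0, 296.9, 272.0 and 252.3 CPM in Rax-SmoCKO replicates 1 to 4, against 309.5, 290.8, 301.6 and 280.2 CPM in control replicates 1 to 4. Its Rax-SmoCKO replicate 2 overlapped the controls, its log2 fold change was the smallest of the 9, -0.11 (SE 0.063, adjusted p = 0.619 from edgeR), and its 95% interval, -0.25 to 0.03, included 0. Igf2bp1 lies on chromosome 11 from 95957163 to 96005940, Igf2bp2 on chromosome 16 from 22059009 to 22163299 and Igf2bp3 on chromosome 6 from 49085223 to 49214957. Igf2bp3 overlaps Malsu1 on the opposite strand, which had 964 counts in all.

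Foxp1 varied least of the 9 genes in Rax-SmoCKO, with a coefficient of variation of 4.35%, and had one of 5.16% in control, where Igf2bp3 varied least (4.32%). It had 508.3, 502.6, 481.7 and 461.7 CPM in Rax-SmoCKO replicates 1 to 4, against 541.9, 534.7, 582.3 and 515.6 CPM in control replicates 1 to 4. The groups did not overlap, which by itself fixes the exact permutation test at p = 0.0286 (two-sided). Its log2 fold change was -0.16 (SE 0.052, 95% interval -0.27 to -0.04, adjusted p = 0.384 from edgeR), so that the interval holds no difference of more than 0.27 in either direction. The gene lies on chromosome 6 from 98925338 to 99522721 and overlaps Gm20696 on its own strand, which had 73 counts in all. Foxp1, which has no let-7 match in the UTR searched, and the 5 early genes with one were therefore all below 0.

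**Figure D2:**
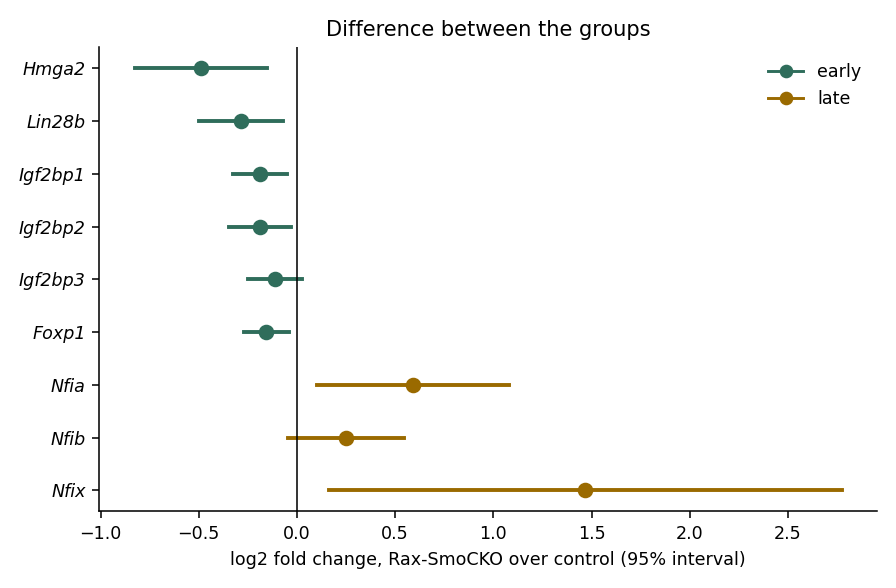
Log2 fold change of each timing gene, Rax-SmoCKO over control (points, x axis), with its 95% interval (bars), early genes in green and late genes in ochre. The early genes lie between -0.49 and -0.11 and the late genes between 0.25 and 1.47, and the intervals of Igf2bp3 and Nfib include 0.

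The other genes with a let-7 match lay close to 0 at their median. Over the 469 tested genes outside the 9 whose UTR holds a match followed by an A, the median log2 fold change was -0.0068 and 51.0% were below 0, beside 0.0036 and 49.1% for the 11908 genes without such a match. Of these 469 genes, 20 were lower and 24 higher at an unadjusted p under 0.05, and 0 passed the threshold. These are counts with no test, on a gene group chosen after the timing genes had been seen. The groups also differ in UTR length, with a median of 2667.5 bases in genes with such a match, timing genes included, and 1258.0 in the others. Whether let-7 acts on any of these genes was not tested.

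The Nfi genes stood out for their spread in Rax-SmoCKO. Nfia had 23.1, 55.1, 39.0 and 33.9 CPM in Rax-SmoCKO replicates 1 to 4, against 28.1, 24.7, 18.9 and 29.7 CPM in control replicates 1 to 4. Rax-SmoCKO replicates 2, 3 and 4 lay above every control library, and replicate 1 lay below 3 of them. The log2 fold change was 0.59 (SE 0.23, 95% interval 0.10 to 1.08, adjusted p = 0.453 from edgeR). Nfia, on chromosome 4 from 97772734 to 98118874, overlaps E130114P18Rik on the opposite strand, which had 838 counts over the 8 libraries. Nfia itself averaged 150.0 counts per library in Rax-SmoCKO and 92.5 in control.

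Nfib had 70.4, 120.0, 93.0 and 80.8 CPM in Rax-SmoCKO replicates 1 to 4, against 82.3, 80.4, 69.3 and 75.6 CPM in control replicates 1 to 4. Rax-SmoCKO replicates 2 and 3 were above the controls and replicates 1 and 4 within their range. Nfib had a log2 fold change of 0.25 (SE 0.14, 95% interval -0.05 to 0.54, adjusted p = 0.590 from edgeR).

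Nfix was close to the limit of detection, with 6, 29, 15 and 2 counts in Rax-SmoCKO replicates 1 to 4, against 2, 7, 3 and 5 counts in control replicates 1 to 4. This is 1.43, 6.24, 4.03 and 0.66 CPM in Rax-SmoCKO and 0.66, 1.65, 0.76 and 1.40 CPM in control. Replicates 2 and 3 of Rax-SmoCKO alone were above the controls. The log2 fold change, 1.47 (SE 0.60, 95% interval 0.16 to 2.77, adjusted p = 0.472 from edgeR), therefore rests on these libraries. Nfib lies on chromosome 4 from 82290173 to 82705750 and Nfix on chromosome 8 from 84699876 to 84800344.

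The same libraries, Rax-SmoCKO replicates 2 and 3, had the highest summed levels of periocular mesenchyme and pigment epithelium markers, whereas lens markers were highest in control replicate 2, at 20433 CPM. The summed level of 10 periocular mesenchyme genes was 93.5, 355.4, 192.5 and 53.8 CPM in Rax-SmoCKO replicates 1 to 4, against 52.9, 92.4, 64.2 and 173.8 CPM in control replicates 1 to 4. The summed level of 10 pigment epithelium genes was 191.9, 412.2, 645.7 and 102.4 CPM in Rax-SmoCKO, against 115.7, 64.8, 120.0 and 284.7 CPM in control, with Rpe65 at 0 in all. Control replicate 4 was the highest control in both sums and in Nfia, but not in Nfib or Nfix. All 9 mesenchyme genes tested and all 7 pigment epithelium genes tested were above 0, with 0 past the threshold. Erythroid genes were also highest in Rax-SmoCKO replicate 2, at 3799 CPM, against 910.4 to 1187 CPM in the other Rax-SmoCKO libraries and 910.2 to 1703 CPM in control. The part of such cells, or of sex, in the Nfi levels was not tested.

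**Figure D3:**
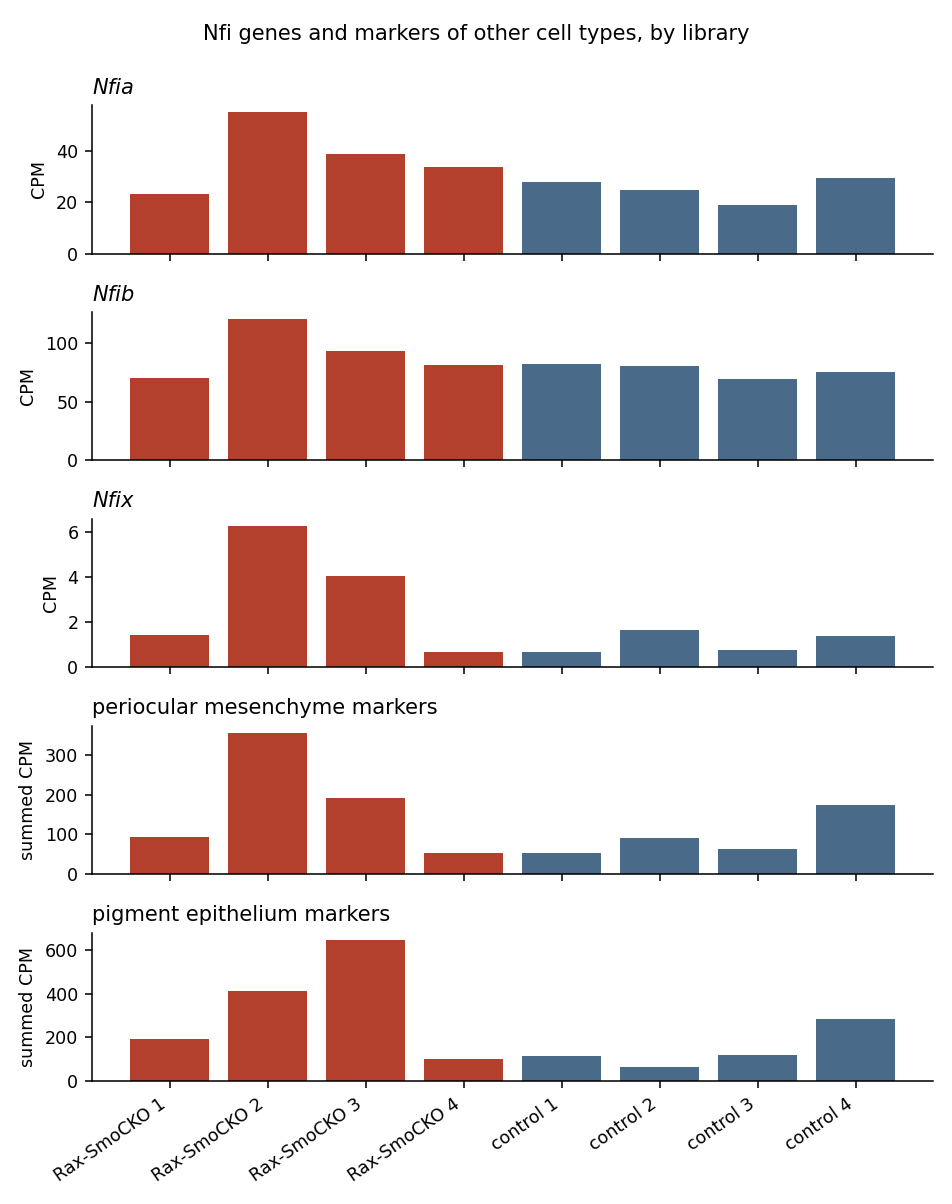
CPM of Nfia, Nfib and Nfix and the summed CPM of periocular mesenchyme and pigment epithelium markers (y axes, from 0) in each library, Rax-SmoCKO in red on the left and control in blue on the right. Rax-SmoCKO replicates 2 and 3 are the highest of the 8 libraries in all 5 panels.

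Leaving out single libraries moved Nfix and Nfia the most of the 9 genes. Without Rax-SmoCKO replicate 2, the log2 fold changes were 0.33 for Nfia, 0.080 for Nfib and 0.85 for Nfix. Without both Rax-SmoCKO replicates 2 and 3, they were 0.16 for Nfia and -0.027 for Nfib (adjusted p = 0.861 and adjusted p = 0.962 from edgeR), and Nfix no longer met the filter. In the same fit Hmga2 was at -0.72 (adjusted p = 0.130 from edgeR). With any single library left out, the 6 early genes stayed between -0.63 and -0.07, and 0 of the 9 genes passed.

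**Figure D4:**
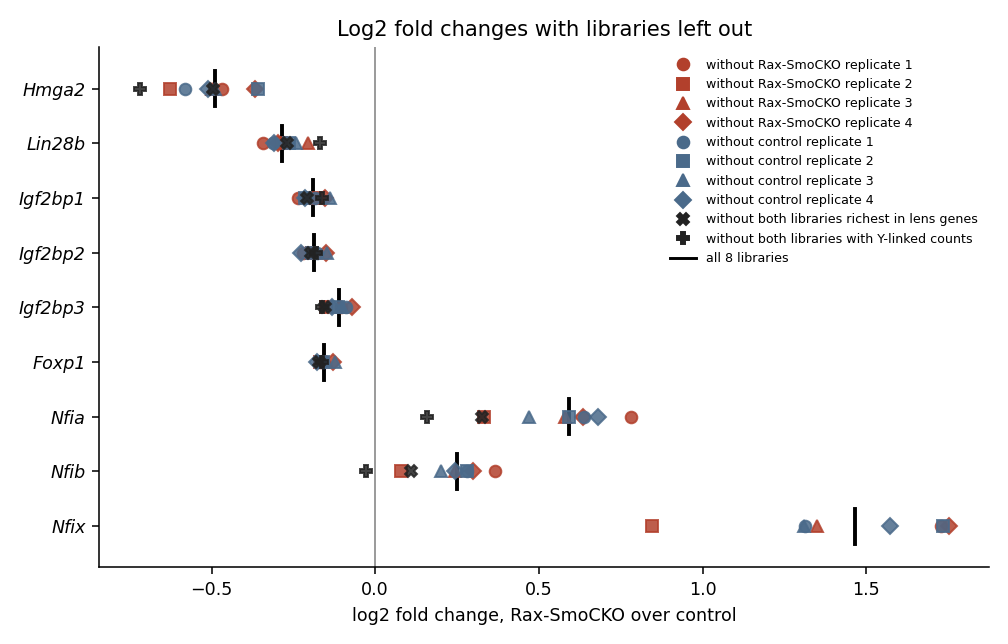
Log2 fold change of each timing gene, Rax-SmoCKO over control (x axis), from all 8 libraries (black bars) and with each library, or a pair of libraries, left out (markers). The early genes stay below 0 in every fit, and Nfib reaches -0.027 without the libraries with Y-linked counts.

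The sums of both groups of genes were set beside each other in each library. The early genes summed to 2009, 1957, 1858 and 1731 CPM in Rax-SmoCKO replicates 1 to 4, against 2149, 2141, 2319 and 2035 CPM in control replicates 1 to 4, which did not overlap. The Nfi genes summed to 94.9, 181.4, 136.0 and 115.3 CPM in Rax-SmoCKO, against 111.1, 106.8, 88.9 and 106.7 CPM in control, which did. The early genes had 10.8 to 21.2 times the summed CPM of the late genes in Rax-SmoCKO and 19.1 to 26.1 times in control, and the highest of these Rax-SmoCKO ratios, in replicate 1, lay within the control range. Hmga2 had 2.97 to 5.88 times the CPM of Nfia in Rax-SmoCKO libraries and 5.58 to 10.4 times in control libraries.

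**Figure D5:**
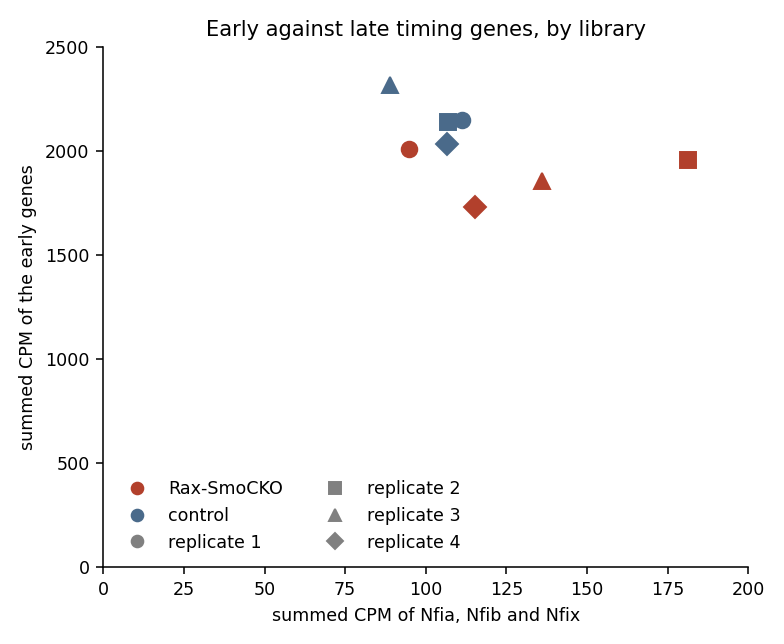
Summed CPM of the 6 early genes (y axis) against that of Nfia, Nfib and Nfix (x axis) in each library, Rax-SmoCKO in red and control in blue, with a marker shape for each replicate number. The Rax-SmoCKO libraries lie lower, at 1731 to 2009 CPM of early genes, and spread further to the right, up to 181.4 CPM of late genes.

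Because the early genes were chosen as RPC genes, their sum was read beside a list of 12 RPC markers. This comparison was added after their values were seen. The study also reports Foxp1 protein in some ganglion cells after birth, so the early sum may not come from RPCs alone. The marker sum was 8172 to 8697 CPM in Rax-SmoCKO and 9360 to 9705 CPM in control. Much of that gap lay in Ccnd1, the cyclin of RPC division. Ccnd1 had 2237 ± 91.5 CPM (SD, n = 4) in Rax-SmoCKO, against 3163 ± 392.7 CPM (SD, n = 4) in control (log2 fold change -0.50, adjusted p = 0.0116 from edgeR). Of the 12 markers, 9 were below 0 and 3 above, namely Rax, Pax6 and Six3. Rax was at 0.35 (SE 0.090, adjusted p = 0.244 from edgeR), and it stayed in the sum when Ccnd1 was taken out. Rax-SmoCKO retinas carry the Rax-Cre BAC transgene, and whether it adds to the Rax counts, and so to both marker sums, was not tested. As a share of the marker sum, the early genes were at 22.5% ± 1.36 (SD, n = 4) in Rax-SmoCKO and 22.7% ± 1.58 (SD, n = 4) in control. Of the marker sum without Ccnd1, they were at 30.7% ± 1.68 (SD, n = 4) in Rax-SmoCKO and 33.9% ± 0.81 (SD, n = 4) in control, with ranges of 28.4 to 32.4% and 32.9 to 34.8%. The groups thus overlapped with Ccnd1 in the sum and did not overlap without it. Hmga2 was at 1.65 to 2.92% of the smaller sum in Rax-SmoCKO and 2.45 to 3.94% in control, and Lin28b at 0.547 to 0.685% and 0.704 to 0.803% in the same groups. Of 13 ganglion cell markers, 12 were above 0 and 0 passed the threshold. At an unadjusted p under 0.05 in edgeR, 11 of the 13 were higher, as were 4.80% of all genes. Their summed level was 4866 to 6918 CPM in Rax-SmoCKO and 4232 to 5038 CPM in control.

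The closest relatives of the timing genes lay near 0 at their median. Of 7 relatives in the table, Foxp3 was at 0 in all libraries, and of the 6 tested, 4 were below 0 and 2 above, with a median log2 fold change of -0.085 and 0 past the threshold. Lin28a, the paralogue that acts earlier in the embryo, was rare, with 3.01 to 4.99 CPM in Rax-SmoCKO and 4.48 to 6.37 CPM in control (log2 fold change -0.40, SE 0.26, adjusted p = 0.654 from edgeR). The Hmga2 relatives Hmga1 and Hmga1b were at -0.04 and -0.13, and Foxp2 and Foxp4 at 0.09 and -0.13. Nfic, the remaining nuclear factor I gene, had 46.7 ± 5.96 CPM (SD, n = 4) in Rax-SmoCKO and 45.0 ± 6.65 CPM (SD, n = 4) in control, a log2 fold change of 0.05 (SE 0.12).

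In a list of 16 genes of the Lin28 and let-7 pathway, 11 were below 0 and 5 above, with a median of -0.068 and 0 past the threshold. Arid3a, a DNA-binding protein whose UTR holds 2 let-7 matches, 1 followed by an A, had the smallest p. It had 69.9 to 85.1 CPM in Rax-SmoCKO and 92.5 to 111.5 CPM in control, which did not overlap (log2 fold change -0.38, SE 0.079, adjusted p = 0.139 from edgeR). Trim71, an RNA-binding ubiquitin ligase of early embryos with 4 let-7 matches, all followed by an A, was at -0.26 (SE 0.14, adjusted p = 0.596 from edgeR). Tut7, which adds uridines to let-7 precursors, was at 0.11 (SE 0.069, adjusted p = 0.660 from edgeR). The other genes of let-7 processing tested lay between -0.11 (Tarbp2) and 0.06 (Drosha). Prtg, a further let-7 target of the early mouse retina, was at -0.09 (SE 0.12).

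Of 13 other early progenitor and temporal identity genes, 7 were below 0 and 6 above (median -0.043), and of 21 other late progenitor and gliogenic genes, 11 were below 0 and 10 above (median -0.0098), with 0 past the threshold in either list. At an unadjusted p under 0.05 in edgeR, 1 of the early list was lower and 0 higher, and 1 of the late list was lower and 4 higher, where 4.68% of all genes tested were lower and 4.80% higher. Pou2f1, a POU factor of early temporal identity, and Onecut1, a factor of horizontal cell fate, were at -0.19 (SE 0.084) and -0.26 (SE 0.13). Fgf15 and Foxn4 of the same list were at -0.11 (SE 0.068) and 0.15 (SE 0.089). Among the late genes, the glutamate transporter gene Slc1a3 had 33.9 ± 7.24 CPM (SD, n = 4) in Rax-SmoCKO and 58.7 ± 16.0 CPM (SD, n = 4) in control (log2 fold change -0.78, SE 0.20, adjusted p = 0.234 from edgeR). The lipid carrier gene Apoe had 47.9 to 70.6 CPM in Rax-SmoCKO and 40.0 to 47.3 CPM in control, without overlap (0.39, SE 0.12, adjusted p = 0.332 from edgeR). Crym and Rlbp1, at 1.92 (SE 0.72) and 1.26 (SE 0.50), reached 38.1 and 23.2 CPM in Rax-SmoCKO replicate 2, one of the libraries high in markers of mesenchyme and pigment epithelium. The other Rax-SmoCKO libraries had 4.28 to 9.41 CPM of Crym and 4.65 to 11.8 CPM of Rlbp1, against at most 7.84 CPM of each in control. Rlbp1 is also a gene of the pigment epithelium. Rax-SmoCKO replicate 3 had more summed pigment epithelium RNA than replicate 2 (645.7 against 412.2 CPM), but 9.41 CPM of Crym and 11.8 CPM of Rlbp1. The part of other cell types in these levels was not tested. Gpr37 was at 0.42 (SE 0.16, adjusted p = 0.455 from edgeR).

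Of the listed RNAs bound by Igf2bp proteins or from the Igf2 locus, 4 of 6 were tested, 2 above 0 and 2 below, with 0 past the threshold. Igf2, which gives the proteins their name, had at most 3 counts in any library. The handling of strand and multi-mapping reads was not stated, so such counts do not show that Igf2 RNA was absent. Its neighbour H19, a noncoding RNA, had 297.8 to 721.6 CPM in Rax-SmoCKO and 412.3 to 858.1 CPM in control (log2 fold change -0.26, SE 0.27). Actb, whose mRNA Igf2bp1 localises, was at 0.016 (SE 0.048).

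The gene whose log2 CPM followed each timing gene most closely over the 8 libraries was looked up among 7909 genes with a mean of at least 20 CPM, so each value below is the highest of many and is given as a description. Hmga2 was closest to Ncl, the gene of the nucleolar protein nucleolin (Pearson's r = 0.996), and Lin28b to the ribosome assembly gene Wdr12 (r = 0.967). Igf2bp1 was closest to Top2a, a topoisomerase of dividing cells (r = 0.975), and Igf2bp3 to Traf7 (r = 0.976). Igf2bp2 and Foxp1 were closest to each other (r = 0.976). Nfia was closest to Nfib (r = 0.933), Nfib to Creb3l2 (r = 0.963) and Nfix to Dlc1 (r = 0.954). The points share their libraries, and thus depth and cell makeup.

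The labelled days rise by a day from each sample to the next, through control and then Rax-SmoCKO. Within a group their order is therefore that of the replicate numbers. Igf2bp1, Igf2bp2 and Foxp1 were lower at each higher replicate number within Rax-SmoCKO, which is the order of labelled days 17 to 20. The design and the study's text place all libraries at the same age, so this order is not read as a change with age. Igf2bp2 and Foxp1 followed each other closely over the 8 libraries (Pearson's r = 0.976). The share of all genes with such an order was not counted. No timing gene was ordered by labelled day within control, from day 13 to day 16, and none had a higher level at each later day in either group.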

How the data were processed

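RNA of isolated mouse retinas was turned into 3′-Tag-Seq libraries (QuantSeq FWD kit, UMI module). Per the methods, the authors trimmed and aligned the reads, and featureCounts gave counts per Ensembl gene. STAR 2.7.0e, limma and 3 builds (mm10, GRCm38, GRCh38) stand in the submitters' processing notes. Collapsing of molecular identifiers, strand and multi-mapping reads are not stated. The table as deposited has whole-number counts of 8 libraries, grouped by title, and each group's mean count (a signal column of the authors' values, not used). The methods give 5 Rax-SmoCKO samples, whereas the deposited counts hold 4, all of them used here. The study's title for the table says normalized, but library totals differ, so the values were taken as counts.

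Groups were compared with edgeR 4.0.16 in R 4.3.3 (TMM scaling, quasi-likelihood fit on group alone, Benjamini-Hochberg adjustment). Genes needed 5 or more counts in 4 or more libraries. Standard errors were derived from F as the size of the log2 fold change over its root. Rows without a symbol (525) held 0.094% of the counts. All pairs of libraries within a group differed by more than sampling noise (chi-square 2.18 to 9.85 per degree of freedom). Alternatives were other scalings, DESeq2 1.42.0, limma-voom (limma 3.58.1), other filters, the replicate number as a block, and libraries left out. Positions and UTRs came from GENCODE M21 on GRCm38, mature microRNAs from RefSeq. Named genes were all 9 timing genes, their relatives, and of each other list the members past the threshold and up to 4 with the smallest p, beside genes named for a range, chosen after their values were seen. The members, gene lists and tests were chosen with earlier results of these data known.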

Additional observations from a re-analysis of the deposited data

Results flagged for a closer look

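None of the 18 groups of 4 timing gene values, 9 genes in Rax-SmoCKO and in control, had a library far from the other 3, by Dixon's 95% criterion on the gap to the nearest of the others. Of 32 groups examined with the marker sums included, 4 did, and chance alone gives about 1 in 20. Rax-SmoCKO replicate 2 stood apart in lens markers (494.0 CPM) and in erythroid markers (3799 CPM), and it was also the highest library in Hmga2 within its group and in Nfia, Nfib and Nfix. Control replicate 2 stood apart in lens markers (20433 CPM) and was the highest library in Hmga2. Control replicate 4 stood apart in ganglion cell markers (5038 CPM) and was the lowest control in the sum of the early genes.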

How the results depend on the processing

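Across 17 alternatives (14 that gave Nfix a value), 8 of the 9 timing genes kept the direction of their log2 fold change in all, and Nfib in 16, turning to -0.027 without both libraries with Y-linked counts. The 9 genes yielded 0 calls in edgeR, DESeq2 and limma-voom and with either other scaling. Without a filter on low counts 2 were called, Hmga2 (adjusted p = 0.000402 in edgeR) and Nfia (adjusted p = 0.00797 in edgeR), when 289 of all genes passed. Of all genes, 14 passed in the main test, 59 with the DESeq2 Wald test, 38 with the replicate block and 12 to 19 with a single library left out. The cause of these differences was not tested. With a single library left out, the median log2 fold change was -0.23 to -0.14 for the early genes and 0.33 to 0.78 for the late genes. Same-numbered libraries had correlations of 0.029, 0.52, 0.029 and 0.35 in their deviations from the group means, for replicates 1 to 4. Differently numbered libraries had correlations of -0.41 to 0.28. These values do not settle whether the replicate numbers pair the samples. With the replicate number as a block, 0 timing genes passed, with Hmga2 at an adjusted p of 0.0587 in edgeR. Nfix gave no value with a minimum of 10 counts or with a pair of libraries left out, and DESeq2 gave it no adjusted p. Other scalings moved the median of all genes by less than 0.01. At 2 to 29 counts of Nfix per library, depth limits what can be said of it.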
